A study of Homo sapiens with 208 samples.

Results

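The genes of glycolysis and a group of hypoxia-inducible factor (HIF) targets, 37 genes in all, were followed over 24 h in the lung adenocarcinoma line PC9 and in its gefitinib-resistant derivative PC9M2. The members were taken from a fixed list by the accession of their probes, and all 37 of the 17256 genes with a probe on the array were found. Of these, 36 were among the 13459 genes tested, for which the signal had to exceed background clearly in 13 or more of the 26 arrays of some course. The exception was HK1, whose more variable probe lay at background. PC9 carries a deletion in the kinase domain of the epidermal growth factor receptor (EGFR) and is sensitive to gefitinib, an inhibitor of that kinase. PC9M2 is a single line that was obtained by growing PC9 in a low amount of gefitinib for months, so every difference between the lines is a difference between 1 parental and 1 resistant line. The cells of all 8 courses were starved for 48 h and then received no addition, 0.5 µM gefitinib, 100 ng/ml EGF, or both. Gefitinib was given before time 0 and EGF at 0 h. RNA was taken at 0 and 0.5 h and then hourly from 1 to 24 h, with 1 one-colour array per time point, 26 per course and 208 in all.

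Glycolysis turns glucose into pyruvate, which is either oxidised in mitochondria or reduced to lactate and exported. HIF-1 is a heterodimer of HIF1A and ARNT that binds a short element in its targets, among them glucose transporters, most glycolytic enzymes, the kinases that switch off pyruvate dehydrogenase, and genes of pH control, angiogenesis and mitophagy. The prolyl hydroxylases, encoded by EGLN genes, mark HIF1A protein for destruction when oxygen is present, and growth factor signalling through PI3K and mTOR raises HIF1A protein. The arrays measured transcripts only, and in RNA from a whole culture less transcript per cell and fewer cells with the transcript cannot be told apart.

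Values are log2 normalized intensities. Treatments were compared within a line by the difference between 2 arrays at the same time point, and limma tested the mean of the 26 differences, with Benjamini-Hochberg adjustment over all tested genes (called at an adjusted p below 0.05, two-sided). Time points stood in for replicates. Successive differences resembled each other, with a median correlation between neighbouring gefitinib differences over the members of 0.41 in PC9 and 0.62 in PC9M2, so the p-values are too small and sizes are given first. The PC9 arrays had a ceiling at 65525 to 65526 scanner units and the PC9M2 arrays at 778994 to 779239, and 10 members reached it on at least 1 PC9 array. GAPDH was saturated on 26 untreated and 25 gefitinib arrays of PC9 and LDHB on 25 and 24, so neither is given a direction in PC9. TPI1 was saturated on 25 and 8 and GPI on 19 and 7, which limits the size of their differences there, whereas no PC9M2 array had a saturated spot. The lines shared no slide and none of their 8 and 9 scan days, so line and scan period cannot be told apart.

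The cells matched their labelled origin in part. All 6 epithelial markers were well above background on every array, and none of the 5 fibroblast markers with a probe was detected on most arrays of either line. Among leukocyte markers CD68 and CD14 were detected, while the defining PTPRC was above background on 1 PC9 array and no PC9M2 array. Of 3 endothelial markers PECAM1 and VWF were detected and CDH5 on only 18 PC9 and 16 PC9M2 arrays. Of 4 lung markers, NAPSA and SFTPC were detected on at least 103 arrays of each line, while NKX2-1, a lung lineage factor, was well above background on only 9 PC9 and 4 PC9M2 arrays. Of 5 transcripts known to follow EGFR-ERK signalling, gefitinib lowered all 5 in PC9 and 4 in PC9M2. The exception was EGR1, an immediate early transcription factor, which fell by 3.79 in PC9 and differed by 0.59 in PC9M2, not called (adjusted p = 0.0911 in limma). DUSP6, a phosphatase that dampens ERK, fell by 6.81 in PC9 but by 2.16 in the resistant line, and SPRY4 fell by 5.00 and 1.61, as log2 differences.

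The promoters of 5 members are shown because they span the range of responses described below, from PDK1 and CA9, which fell most, to LDHA, which did not pass the test in PC9. Each is the 250 bases before the annotated start, from RefSeq on GRCh38.p14, plus strand, read from 5′ to 3′. Capitals mark the core of the HIF-binding element, ACGTG, or its reverse complement CACGT. Where CACGTG occurs both readings overlap.
PDK1 (chr2:172555123-172555372): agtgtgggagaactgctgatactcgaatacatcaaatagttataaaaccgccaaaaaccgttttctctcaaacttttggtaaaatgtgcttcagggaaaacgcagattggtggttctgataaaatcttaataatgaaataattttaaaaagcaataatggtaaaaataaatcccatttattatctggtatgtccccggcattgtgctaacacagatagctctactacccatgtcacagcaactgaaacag
CA9 (chr9:35673678-35673927): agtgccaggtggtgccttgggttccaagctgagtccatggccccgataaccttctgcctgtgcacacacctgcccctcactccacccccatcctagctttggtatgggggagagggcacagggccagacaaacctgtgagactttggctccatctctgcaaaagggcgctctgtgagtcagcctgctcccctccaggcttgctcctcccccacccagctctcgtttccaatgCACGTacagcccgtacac
ENO2 (chr12:6914330-6914579): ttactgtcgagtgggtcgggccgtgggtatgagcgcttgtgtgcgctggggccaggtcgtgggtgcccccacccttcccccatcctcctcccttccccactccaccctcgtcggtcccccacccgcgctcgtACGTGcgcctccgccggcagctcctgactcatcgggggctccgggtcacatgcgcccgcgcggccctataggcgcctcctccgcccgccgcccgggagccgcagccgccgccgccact
PGK1 (chrX:78103998-78104247): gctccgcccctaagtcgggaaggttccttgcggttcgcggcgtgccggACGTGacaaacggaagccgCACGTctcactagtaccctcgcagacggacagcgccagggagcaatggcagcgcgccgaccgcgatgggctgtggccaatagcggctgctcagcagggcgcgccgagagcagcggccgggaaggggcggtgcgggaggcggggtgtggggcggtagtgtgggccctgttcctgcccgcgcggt
LDHA (chr11:18394313-18394562): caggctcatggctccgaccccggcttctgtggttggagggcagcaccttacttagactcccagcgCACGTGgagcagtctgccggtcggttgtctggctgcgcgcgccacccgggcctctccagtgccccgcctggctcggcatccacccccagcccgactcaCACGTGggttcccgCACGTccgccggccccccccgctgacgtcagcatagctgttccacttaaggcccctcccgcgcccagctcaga

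A promoter was listed for 32 of the 37 members, and 15 of these (46.9%) held ACGTG on either strand, against 18.5% of all 35116 promoters in the table and 20.2% of the 22199 of protein-coding genes. The variant GCGTG was found in 37.5% of the member promoters in 32.2% of all and in 38.3% of those of protein-coding genes. The PDK1 window held neither form although PDK1 showed the deepest fall. The LDHA window held 5 readings of ACGTG at 3 places although LDHA did not pass the test in PC9. There its probe was saturated on 5 untreated and 4 gefitinib arrays. A match is only a string of letters, and the window covers a small part of the sequence that can bind HIF-1.

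To ask how EGFR inhibition affected these genes, gefitinib-treated cells were compared with untreated cells at each time point. In PC9, 27 of the 36 tested members fell, 3 were called higher (EGLN3, and the saturated GAPDH and LDHB) and 6 did not pass the test. Over all genes 72.1% were called, about as many higher as lower (34.9% and 37.2%). The 27 members that fell make 75% of those tested, and the median member difference was -0.68 against -0.02 over all genes. In PC9M2, 33 of 36 fell, none was called higher, and 3 did not pass. Here 66.4% of all genes were called, 33.8% of all genes downward, and the median member difference was -0.83 against -0.01. Of the members, 26 fell in both lines, as did 28.6% of all genes. When EGF was present in both arms, gefitinib lowered 28 members in PC9 (78.8% of all genes called, 39.9% downward). In PC9M2 it lowered 33 (74.3% called, 37.8% downward). In all 4 gefitinib comparisons 25 members and 26.3% of all genes fell. Without the time points at 8, 11, 16 and 18 h, 27 members fell in PC9 and 32 in PC9M2. Each of these time points held the array farthest from its neighbours in time in some course. They were left out after seeing the data, and other arrays about as far were kept. With saturated spots removed, 26 of the 33 members still testable in PC9 fell and 1, EGLN3, was higher.

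**Figure D1:**
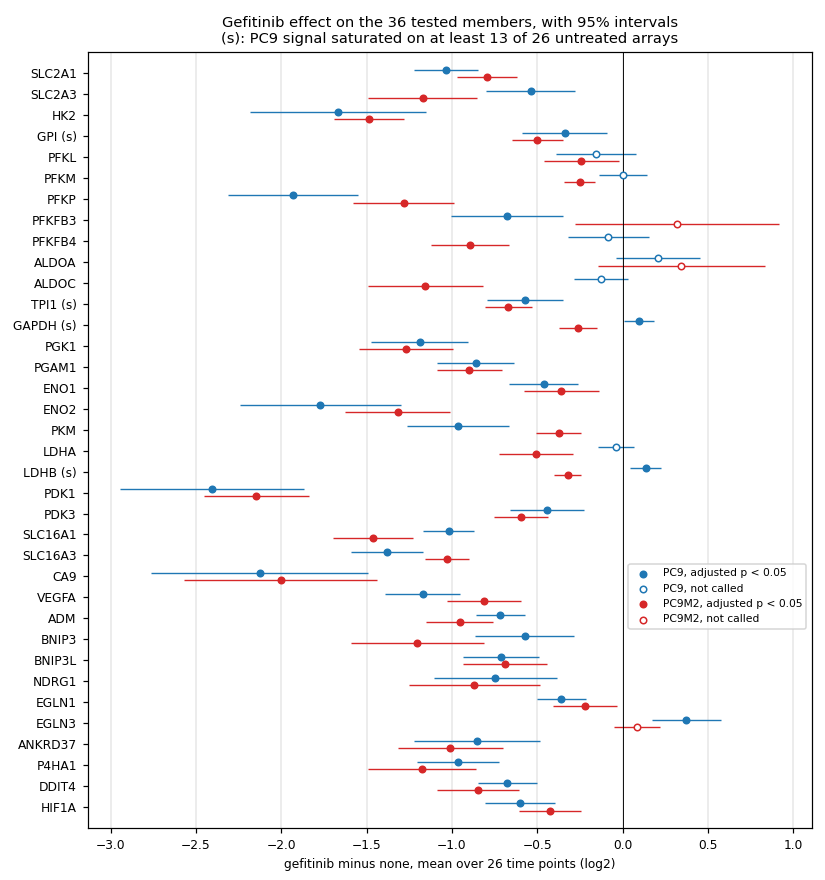
Mean log2 difference between gefitinib and no addition over 26 time points for each of the 36 tested members, with 95% intervals, in PC9 (blue) and PC9M2 (red). Filled points passed the test; members marked (s) were saturated on at least 13 of the 26 untreated PC9 arrays. PDK1 and CA9 lie farthest to the left in both lines, and only EGLN3, GAPDH and LDHB are filled to the right of 0.

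Of the 2 tested glucose transporters, both fell in both lines. SLC2A1 encodes GLUT1, the main basal transporter. Its signal in untreated PC9 lay between 13.13 and 14.86 (median 14.05), and under gefitinib between 11.95 and 13.77 (median 13.13). The ranges overlapped, yet every one of the 26 pairs was lower with gefitinib, with a mean difference of -1.04 ± 0.09 (SE, n = 26, adjusted p = 8.82e-11). In PC9M2 the difference was -0.79 ± 0.09 (SE, n = 25, adjusted p = 6.17e-09). SLC2A3, the high-affinity transporter GLUT3, was dim in PC9M2, where it was well above background on 25 untreated and 22 gefitinib arrays. It fell by 0.54 in PC9 and 1.17 in PC9M2, but a second, brighter probe gave -0.06 in PC9 and -1.13 in PC9M2, so the fall in PC9 was seen with 1 probe only.

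In upper glycolysis, from hexokinase to triose phosphate isomerase, 5 of 10 tested members fell in PC9 and 8 in PC9M2. HK2 encodes the inducible hexokinase that traps glucose as glucose 6-phosphate. In untreated PC9 it lay between 1.96 and 9.43 (median 8.84), and under gefitinib between 5.55 and 8.38 (median 6.65). The lowest untreated value came from the array at 14 h, where the second HK2 probe read 13.37 and showed no drop from its neighbours (13.10 at 13 h and 13.65 at 15 h). The mean difference was -1.67 ± 0.25 (SE, n = 26, adjusted p = 1.11e-06), and -1.88 without that time point. In PC9M2 HK2 lay between 6.28 and 9.69 (median 8.58) untreated and between 4.69 and 7.94 (median 6.84) under gefitinib, lower at all 26 time points, with a difference of -1.49 ± 0.10 (SE, n = 26, adjusted p = 4.6e-13). The second, brighter HK2 probe gave -1.60 in PC9 and -1.14 in PC9M2. The constitutive hexokinase HK1 could be read only from its other probe, which was bright: it gave -0.50 in PC9, lower at all 26 time points, and -0.10 in PC9M2.

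The phosphofructokinase isoforms, which catalyse the committed step, parted. PFKP, the platelet form, ranged between 14.30 and 15.74 (median 14.70) in untreated PC9 and between 12.01 and 14.61 (median 12.65) under gefitinib. From 3 h on no gefitinib array reached the lowest untreated one, with a mean difference of -1.93 ± 0.19 (SE, n = 26, adjusted p = 3.89e-10), a 3.81-fold fall. In PC9M2 the corresponding ranges were 13.22 to 14.71 (median 13.96) and 12.23 to 13.64 (median 12.65), and the difference was -1.28 ± 0.14 (SE, n = 26, adjusted p = 8.8e-09). By contrast the muscle form PFKM and the liver form PFKL differed by 0.01 and -0.16 in PC9, where neither was called, and fell by 0.25 and 0.24 in PC9M2. The second PFKL probe gave -0.53 in PC9, where the mean of both probes was called (-0.34, adjusted p = 0.00549 in limma). The PFKL call in PC9M2 (adjusted p = 0.0479) was lost under 8 of the alternative settings. PFKFB3 and PFKFB4 make fructose 2,6-bisphosphate, the activator of phosphofructokinase. PFKFB3 fell by 0.68 in PC9 and differed by 0.32 in PC9M2, not called. Its 4 probes disagreed in PC9M2: the brightest gave -0.54, which was called when it was used. PFKFB4 did the reverse, -0.08 in PC9 (not called) and -0.89 ± 0.11 (SE, n = 26, adjusted p = 5.8e-08) in PC9M2.

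Glucose 6-phosphate isomerase, GPI, fell in both lines (-0.34 and -0.50). Of the aldolases, ALDOA did not pass the test in either line (0.21 and 0.34), and its signal was erratic, from 8.01 to 14.99 in untreated PC9M2. ALDOC, the brain-type aldolase, differed by -0.13 in PC9 (adjusted p = 0.136), with a 95% interval from -0.29 to 0.03. In PC9M2 it ranged between 9.02 and 11.93 (median 11.05) untreated and between 8.92 and 9.88 (median 9.50) under gefitinib. The gefitinib course stayed near the lowest untreated values, and the difference was -1.16 ± 0.16 (SE, n = 26, adjusted p = 4.32e-07). TPI1, triose phosphate isomerase, fell by 0.57 in PC9 and 0.67 in PC9M2.

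In lower glycolysis, from glyceraldehyde 3-phosphate to pyruvate, all 6 members fell in PC9M2 and 5 in PC9. ENO2, the neuronal enolase and a known HIF target, lay between 7.12 and 9.73 (median 8.68) in untreated PC9 and between 4.70 and 7.67 (median 6.83) under gefitinib. Its difference was -1.77 ± 0.23 (SE, n = 26, adjusted p = 8.37e-08). In PC9M2, with 7.31 to 9.69 (median 8.84) untreated and 6.57 to 7.89 (median 7.44) treated, it was -1.32 ± 0.15 (SE, n = 26, adjusted p = 1.04e-08). The ubiquitous enolase ENO1 fell less, by 0.46 and 0.36. The PC9 call was lost under 75th percentile scaling (-0.16), and with EGF in both arms the PC9 difference was -0.18, not called. PGK1, which makes the first ATP of the pathway, fell by 1.19 ± 0.14 (SE, n = 26, adjusted p = 1.15e-08) in PC9 and fell by 1.27 ± 0.13 (SE, n = 26, adjusted p = 2.6e-09) in PC9M2. Its 2 other probes gave -0.43 and -0.98 in PC9, the former saturated on all 26 untreated arrays, and -0.68 and -1.01 in PC9M2. PGAM1, phosphoglycerate mutase, fell to a like degree in both lines (-0.86 and -0.90). PKM, pyruvate kinase, fell by 0.96 in PC9 and 0.37 in PC9M2. GAPDH, often used as an invariant reference, fell by 0.26 in PC9M2.

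At the branch between lactate and mitochondria, 4 of 6 members fell in PC9 and 6 in PC9M2, and PDK1 gave the largest mean difference of any member in both lines. It encodes a kinase that inactivates pyruvate dehydrogenase. In untreated PC9 it lay between 10.36 and 11.43 (median 10.78), and under gefitinib between 5.65 and 10.63 (median 7.89). From 3 h on every gefitinib array lay below the lowest untreated one. The mean difference was -2.40 ± 0.26 (SE, n = 26, adjusted p = 4.03e-09), a 5.30-fold fall. In PC9M2 PDK1 lay between 10.41 and 12.39 (median 12.11) untreated and between 8.80 and 10.33 (median 9.59) under gefitinib, so that the ranges did not overlap, and the difference was -2.15 ± 0.15 (SE, n = 26, adjusted p = 1.28e-12). The second PDK1 probe gave -2.30 and -2.25. PDK3, a related kinase, fell by 0.44 and 0.60.

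The monocarboxylate transporters that carry lactate across the membrane fell at all 26 time points in both lines. SLC16A1, which encodes MCT1, fell by 1.02 ± 0.07 (SE, n = 26, adjusted p = 1.33e-12) in PC9 and fell by 1.46 ± 0.11 (SE, n = 26, adjusted p = 9.11e-12) in PC9M2. SLC16A3, which encodes the lactate exporter MCT4, lay between 15.13 and 16.65 (median 15.73) in untreated PC9, saturated on 8 arrays, and between 14.01 and 15.57 (median 14.29) under gefitinib, saturated on none. Its difference was -1.38 ± 0.10 (SE, n = 26, adjusted p = 2.35e-12) in PC9, -1.23 with saturated spots removed, and -1.03 ± 0.06 (SE, n = 26, adjusted p = 8.13e-14) in PC9M2. The lactate dehydrogenase LDHA, which favours lactate formation, differed by -0.04 in PC9 (adjusted p = 0.529), with a 95% interval from -0.14 to 0.07, and fell by 0.51 ± 0.11 (SE, n = 26, adjusted p = 0.000114) in PC9M2. The LDHA probe used was saturated on 5 untreated and 4 gefitinib arrays of PC9. Its 2 other probes gave 0.11 and 0.16 in PC9, saturated on 26 and 18 untreated arrays, and -0.32 and -0.10 in PC9M2. The ceiling thus limits what the 2 other LDHA probes could show in PC9, and the probe used only on its few saturated arrays. LDHB, the form that favours lactate oxidation, fell by 0.32 in PC9M2.

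All 9 other HIF targets fell in both lines. CA9, a surface carbonic anhydrase with a part in pH control, ranged between 5.38 and 8.18 (median 6.96) in untreated PC9 and between 1.92 and 8.20 (median 4.91) under gefitinib, where only 14 of 26 arrays were well above background. The mean difference was -2.13 ± 0.31 (SE, n = 26, adjusted p = 5.98e-07). The signal in PC9M2 exceeded background clearly on 21 untreated and 9 gefitinib arrays, and the difference was -2.00 ± 0.27 (SE, n = 26, adjusted p = 2.68e-07). The size therefore rests in part on values at background. BNIP3, a mitophagy receptor, lay between 11.12 and 13.44 (median 12.72) in untreated PC9M2 and between 10.79 and 11.76 (median 11.20) under gefitinib. It fell by 1.20 ± 0.19 (SE, n = 26, adjusted p = 2.63e-06) there and by 0.57 in PC9. Its relative BNIP3L fell by 0.71 in PC9 and 0.69 in PC9M2, and its second probe gave -0.36 and -0.57. P4HA1, a collagen prolyl hydroxylase, fell by 1.18 ± 0.15 (SE, n = 26, adjusted p = 1.16e-07) in PC9M2 and by 0.96 in PC9. ANKRD37, an ankyrin repeat protein induced in hypoxia, fell by 1.01 ± 0.15 (SE, n = 26, adjusted p = 1.11e-06) in PC9M2 and by 0.85 in PC9. VEGFA, the angiogenic growth factor, fell by 1.17 ± 0.11 (SE, n = 26, adjusted p = 1.77e-10) in PC9 and by 0.81 in PC9M2, and its 3 other probes gave -0.82 to -0.99 in PC9 and -0.37 to -0.54 in PC9M2. The vasodilator peptide gene ADM (-0.72 and -0.96), NDRG1 (-0.75 and -0.87) and the mTOR inhibitor gene DDIT4 (-0.68 and -0.85) fell by less than 1 in either line.

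Of HIF1A and 2 prolyl hydroxylase genes, 2 fell in each line, and HIF1A transcript was one of them. It ranged between 9.73 and 11.70 (median 10.37) in untreated PC9 and between 9.15 and 11.05 (median 9.67) under gefitinib, a fall of 0.60 in PC9, and of 0.43 in PC9M2. The array carries no measure of HIF1A protein. Of the prolyl hydroxylases, EGLN1 fell by 0.36 and 0.22, the latter with an adjusted p of 0.0368 that was lost under 4 of the alternative settings. EGLN3, a HIF target like the rest, was the exception: it rose by 0.37 in PC9 (adjusted p = 0.00134) and differed by 0.09 in PC9M2, not called.

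To see when the effect arose, the mean difference from 17 to 24 h was compared with that from 0 to 8 h. In PC9 the effect was more negative late for 22 members and more positive for none (49.3% of all genes called, 24.5% more negative). In PC9M2 it was more negative for 25 and more positive for 1, HIF1A (39.2% of all genes called, 19.9% more negative). The median member difference went from -0.30 early to -0.81 at 9 to 16 h and -0.9996 late in PC9, and from -0.34 to -0.95 and -1.21 in PC9M2. CA9 changed most, from -0.57 to -4.02 in PC9 and from -0.72 to -3.42 in PC9M2. ENO2 went from -0.46 to -2.74 in PC9, and PFKP from -0.93 to -2.96.

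The order in which members fell was not the same for all. PDK1 already differed by -1.39 early in PC9M2 and by -0.97 in PC9. The transporter gene SLC16A3 had its fall from the start, -1.15 early and -1.34 late in PC9 and -1.14 and -0.93 in PC9M2, and neither change between windows was called. The HIF1A difference was -0.61 early, -0.86 in the middle window and -0.33 late in PC9, and it shrank from -0.68 to -0.18 in PC9M2 (adjusted p = 0.0409 in limma). BNIP3 moved the other way, with early differences of 0.19 in PC9 and -0.06 in PC9M2 and late ones of -1.33 and -2.37. BNIP3L, NDRG1 and ANKRD37 had early means of -0.33 or nearer to 0 and late means between -1.63 and -1.22. The EGLN3 difference in PC9 was 0.78 early and -0.07 late.

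**Figure D2:**
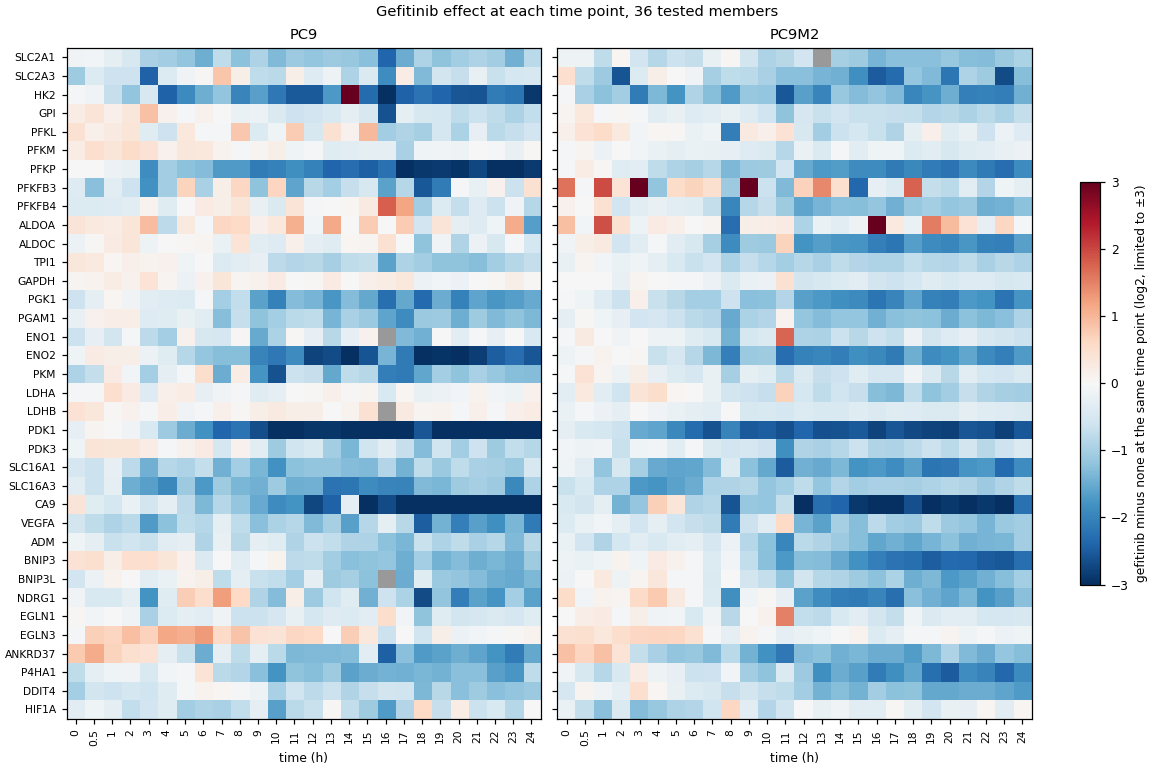
Log2 difference between gefitinib and no addition at each of the 26 time points (columns) for the 36 tested members (rows), in PC9 and PC9M2, with blue for lower and red for higher. Blue deepens after about 8 h for most rows, while SLC16A3 and SLC16A1 are blue from the first hours and ALDOA is mixed. Grey cells are values removed as outlier spots.

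**Figure D3:**
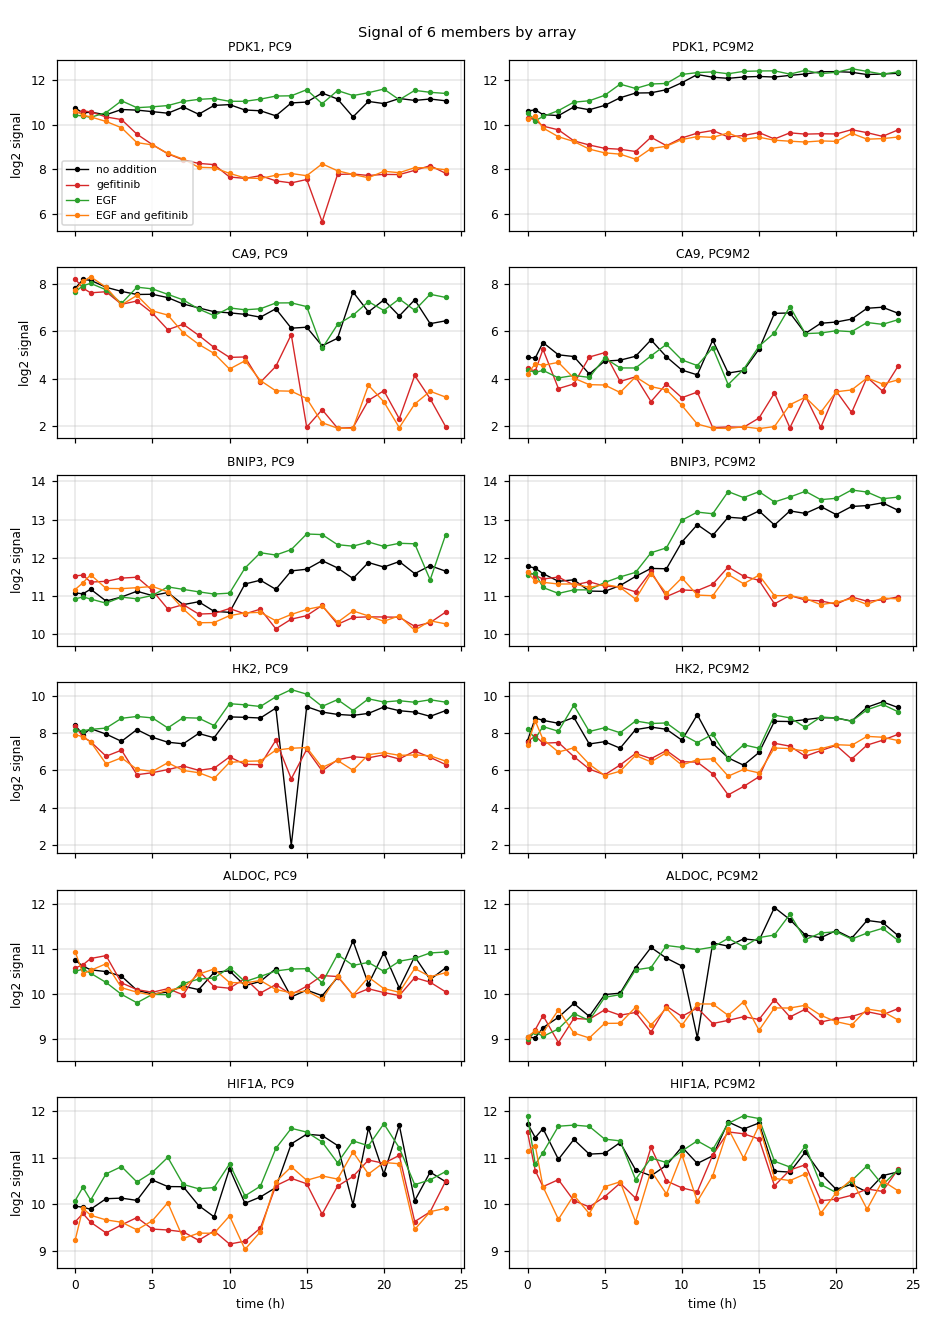
Log2 signal of PDK1, CA9, BNIP3, HK2, ALDOC and HIF1A against time in h, 1 array per point, for the 4 treatments of PC9 (left) and PC9M2 (right). The 2 gefitinib courses run together below the other 2 for PDK1 after the first hours, ALDOC separates in PC9M2 and not in PC9, and the single low HK2 point is the untreated PC9 array at 14 h.

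The mean of the 32 members saturated on fewer than 13 untreated PC9 arrays summarises this. In untreated PC9 it ranged between 10.75 and 11.75 (median 11.15), and under gefitinib between 10.01 and 10.99 (median 10.35). In PC9M2 it ranged between 10.12 and 11.36 (median 10.99) untreated and between 9.76 and 10.29 (median 10.05) under gefitinib. In PC9M2 the untreated mean went from 10.47 early to 11.25 late while the treated mean was 10.10 early and 10.00 late. In PC9 both moved, the untreated mean from 10.97 to 11.54 and the treated one from 10.63 to 10.31.

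**Figure D4:**
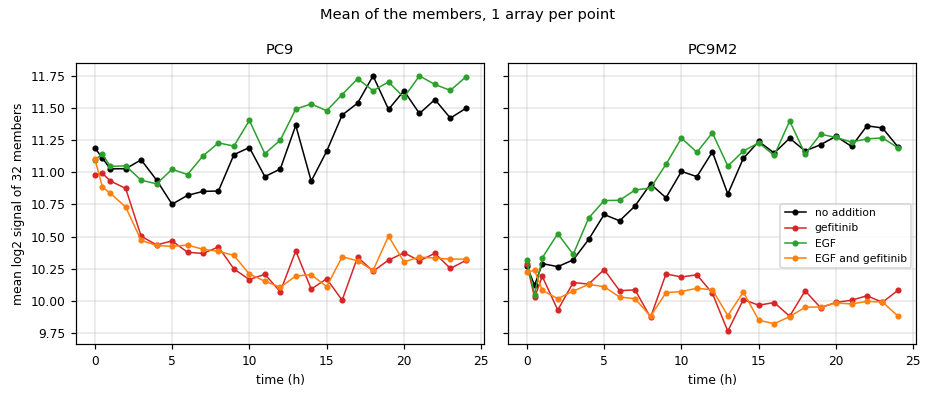
Mean log2 signal of 32 members against time in h, 1 array per point, in the 4 courses of PC9 (left) and PC9M2 (right). Both gefitinib courses lie below both others from 2 h on, with values between 9.76 and 10.24 in PC9M2 with gefitinib alone from 0.5 h on.

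Whether the resistant line responded differently was tested as the difference of the gefitinib effects. It was called for 18 of 36 members, with 34% of all genes called. The fall was smaller in PC9M2 for PFKP (0.65), PKM (0.59), ENO2 (0.46), VEGFA (0.36), SLC16A3 (0.35) and SLC2A1 (0.24), and PFKFB3 also lay on this side (1.00). It was larger in PC9M2 for ALDOC, with a difference of -1.03 ± 0.16 (SE, n = 26, adjusted p = 1.15e-05), and for PFKFB4 (-0.81), SLC2A3 (-0.63), BNIP3 (-0.63), LDHA (-0.47), SLC16A1 (-0.44), PFKM (-0.26) and ADM (-0.24), and EGLN3, GAPDH and LDHB had the same sign. GAPDH and LDHB cannot be read here because of the PC9 ceiling. SLC16A3 turned to -0.18 under 75th percentile scaling and lost its call with saturated spots removed (0.24), SLC2A3 turned to 0.07 under normexp, neither turned value being called, and PFKFB3 lost its call with its brightest probe (0.32). PDK1 (0.26, 95% interval -0.05 to 0.57), CA9 (0.12, -0.32 to 0.57) and PGK1 (-0.08, -0.27 to 0.11) did not pass. By comparison the ERK-pathway gene DUSP6, no member, fell by 6.81 in PC9 and 2.16 in PC9M2. Only 5 members were called with time points 3 h apart and 7 without pairing.

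EGF alone raised a minority of members, by less than gefitinib lowered them. In PC9, 14 rose and 1, EGLN3, fell (25.3% of all genes called, 11.1% upward). HK2 rose by 0.90 ± 0.29 (SE, n = 26, adjusted p = 0.023), NDRG1 by 0.50, BNIP3 by 0.37, ENO2 by 0.36, PDK1 by 0.29 and HIF1A by 0.28. The HK2 value includes the low untreated array at 14 h. In PC9M2, 5 rose and CA9 fell by 0.32 (9.05% of all genes called, 4.1% upward). BNIP3 rose by 0.26, PFKP by 0.23, PGK1 by 0.17, PDK1 by 0.16 and SLC2A1 by 0.14. None of these calls in either line remained without pairing. When gefitinib was present, EGF changed no member in PC9 (limma, 0.0446% of all genes called). It lowered 2 in PC9M2 (3.05% called, 2.11% downward), PDK1 by 0.19 and EGLN3 by 0.13. In PC9, 4 members had an unadjusted p below 0.05 in that comparison.

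Between the lines, the untreated courses differed for 26 members and 68.1% of all genes. SLC2A3 was lower in PC9M2, between 3.76 and 8.46 (median 6.50) against between 7.36 and 10.14 (median 8.39) in PC9, a difference of -2.32 ± 0.30 (SE, n = 26, adjusted p = 7.2e-08). Its second probe gave -2.15. CA9 was lower in PC9M2 by 1.55 ± 0.26 (SE, n = 26, adjusted p = 5.07e-06), and so were ALDOA (-1.46) and NDRG1 (-1.10). BNIP3 was higher at all 26 time points, by 1.10 ± 0.11 (SE, n = 26, adjusted p = 8.81e-10), PDK1 by 0.87, PFKFB4 by 0.83 and HIF1A by 0.52. Under gefitinib 23 members differed (64.8% of all genes), under EGF 28 (69.9%) and under both 23 (67.7%). SLC2A3, CA9, ALDOA, NDRG1, ADM, ANKRD37, LDHA, PFKL, PFKM, ENO1, PGK1, TPI1 and BNIP3L were lower in PC9M2 under all 4 treatments (25.8% of all genes), and PDK1, BNIP3 and HIF1A higher (22.1% of all genes). The lower calls for ENO1, LDHA, TPI1, PGK1 and BNIP3L in untreated cells depended on the setting: under 75th percentile scaling ENO1 gave -0.02, not called, and TPI1 turned to 0.42, the brightest LDHA probe gave -0.05, not called, and the brightest probes of PGK1 and BNIP3L gave 0.17 and 0.38. The PFKP gap of -0.85 in untreated cells was -0.20 under gefitinib, not called.

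**Figure D5:**
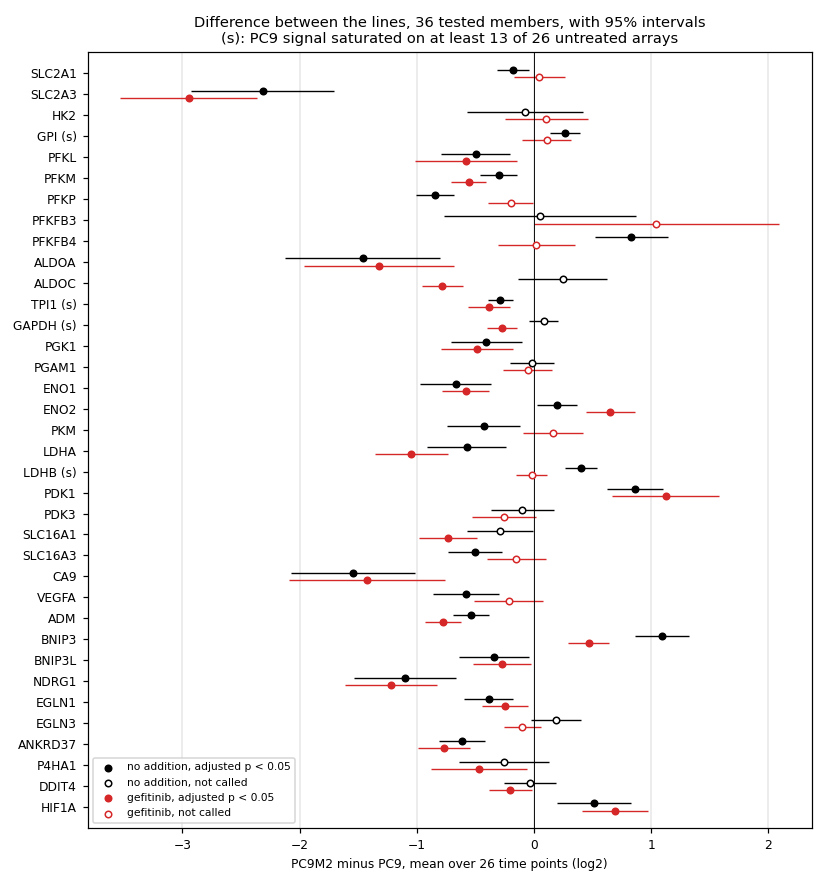
Mean log2 difference PC9M2 minus PC9 over 26 time points for the 36 tested members, with 95% intervals, without addition (black) and with gefitinib (red). Filled points passed the test; members marked (s) reached the PC9 ceiling on at least 13 of 26 untreated arrays. SLC2A3 lies farthest to the left, and BNIP3, PDK1 and HIF1A are filled to the right of 0 under both conditions.

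Without any addition the signal of most members differed along the 24 h course. Each slide held 1 time point, so time and slide cannot be told apart here. A spline over time was called for 27 members in PC9 (66.5% of all genes) and 33 in PC9M2 (67.4%). Of these 23 and 30 had a higher mean late than early, as did 33.2% and 34.8% of all genes. With scan day as a random block 19 and 27 of the calls were kept, and with time points 3 h apart 0 and 14. In PC9 NDRG1 lay between 6.58 and 10.66 (median 8.56) and its late mean exceeded the early one by 2.08. ENO2 (1.73), PFKFB3 (1.67) and ANKRD37 (1.61) followed. In PC9M2 BNIP3 (1.81), P4HA1 (1.72), SLC2A3 (1.71), ALDOC (1.66) and CA9 (1.63) had the largest late excess. A few members went in opposite directions in the lines. CA9 was lower late in PC9 (-0.85) and higher late in PC9M2, and HIF1A was higher late in PC9 (0.67) and lower in PC9M2 (-0.60). These line differences in the time course were not tested.

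Related genes outside the list were read from 4 further lists. Over all genes, gefitinib lowered 37.2% and raised 34.9% in PC9, and lowered 33.8% and raised 32.6% in PC9M2. Of 22 other tested glycolysis genes, 11 fell and 5 rose with gefitinib in PC9 and 7 fell and 6 rose in PC9M2. TIGAR, a fructose bisphosphatase that slows glycolysis, fell by 2.03 and 1.52, and the hexokinase-domain gene HKDC1 by 1.29 and 1.44. The D-lactate dehydrogenase gene LDHD rose by 2.70 and 1.50 and the transporter gene SLC2A10 by 1.26 and 0.87, the latter gene well above background on only 4 and 5 untreated arrays. Of 12 genes of pyruvate entry into mitochondria, 6 fell and 5 rose in PC9 and 6 and 4 in PC9M2. In contrast to PDK1 and PDK3, the kinase genes PDK4 (2.18 and 2.66) and PDK2 (0.96 and 0.96) rose in both lines, as did pyruvate carboxylase, PC (1.55 and 0.55), whereas the phosphatase gene PDP1 fell by 0.64 in PC9, PDP2 by 0.67 in PC9M2, and the dehydrogenase subunit PDHA1 by 0.40 and 0.42.

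Among 13 HIF regulators, 5 fell and 7 rose in PC9 and 5 fell and 5 rose in PC9M2. ARNT2, a partner of HIF proteins, fell by 2.83 and 1.80, and VHL, which targets HIF1A for destruction, by 1.09 and 0.57. CITED2, which competes with HIF1A for its coactivator, rose by 1.79 and 1.34, and EPAS1, which encodes HIF-2 alpha, by 0.63 and 0.64. Of 28 other HIF targets, 8 fell and 10 rose in PC9 and 14 fell and 7 rose in PC9M2, with medians of 0.08 and -0.20. Over all genes 37.2% fell and 34.9% rose in PC9, and 33.8% and 32.6% in PC9M2. ANGPTL4 fell by 3.14 and 1.99, although it was well above background on only 12 and 13 gefitinib arrays, and ERRFI1 by 2.10 and 1.18. IGFBP3 rose by 1.39 and 1.11, ZNF395 by 1.26 and 0.92, and LOX by 1.23 in PC9. The 9 members grouped as other HIF targets all fell in both lines, beside 8 of 28 in PC9 and 14 of 28 in PC9M2 here. That group leaves out the member EGLN3, also a HIF target, which rose by 0.37 in PC9 and was not called in PC9M2. No test compared the lists.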

How the data were processed

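Each of 208 RNA samples was hybridised to a one-colour Agilent whole-genome array, and the deposited scanner intensities were background-subtracted and detrended by the authors with Feature Extraction 10.5.1.1, per the file headers. A deposited table held the same intensities after quantile normalization by the authors, and quantile normalization repeated here lay within 0.004 of it (log2). Values were floored at 1, outlier spots (0.0794% of tested values) were removed, spots of a probe were averaged, and the most variable probe stood for a gene. Of 41000 probes, 25448 matched a symbol through RefSeq accessions. limma 3.58.1 in R 4.3.3 tested paired differences over 26 time points, after tests on simulated data. The simulated time points were independent, so those tests could not show the effect of the resemblance between neighbouring time points. The 95% intervals are the standard error times a Student quantile on the residual degrees of freedom. They take the time points as independent and are too narrow where neighbouring differences resemble each other. Early, middle and late windows were 0 to 8, 9 to 16 and 17 to 24 h, with 10, 8 and 8 time points, and change over time used a spline with 4 degrees of freedom. Time points stood in for replicates, so p-values measure the spread along 1 course and not between cultures. Alternatives changed the scaling, background (normexp on the median signals, the mean signal planned for it not being used here), filter, probe, pairing, spacing, test, scan day and saturated spots. From 24464 to 35938 features of an array exceeded background clearly, and the number of arrays limits the precision. The members and gene lists were chosen with earlier results of these data known. All members may be named. Members called with a difference of at least 1 are given with error and p, and of the other lists the 2 largest called rises and falls per line are named, with others where a list is described. The result of 1 marker gene is not reported here.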

Additional observations from a re-analysis of the deposited data

Results flagged for a closer look

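The response to gefitinib in PC9M2 minus that in PC9, tested directly with limma, was called for 18 members, 34% of all genes being called. On the side of a smaller fall in PC9M2 were SLC2A1 (0.24), PFKP (0.65), PFKFB3 (1.00), ENO2 (0.46), PKM (0.59), SLC16A3 (0.35) and VEGFA (0.36). On the other side were SLC2A3 (-0.63), PFKM (-0.26), PFKFB4 (-0.81), ALDOC (-1.03), GAPDH (-0.36), LDHA (-0.47), LDHB (-0.45), SLC16A1 (-0.44), ADM (-0.24), BNIP3 (-0.63) and EGLN3 (-0.29). GAPDH and LDHB were at the ceiling of the PC9 arrays. SLC16A3 turned to -0.18 under 75th percentile scaling and SLC2A3 to 0.07 under normexp, both without a call, and the brightest PFKFB3 probe gave 0.32 without a call. With saturated spots removed, 15 of the 16 members still testable kept their call and SLC16A3 lost it (0.24). With the brightest probe, and with the mean of all probes, 17 of 18 kept theirs, PFKFB3 being the exception under both. With the brightest probe 3 further members passed, HK2 (0.46), PGK1 (-0.24) and BNIP3L (-0.21).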

How the results depend on the processing

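Over 17 counts of called members and 223 alternatives, 204 counts lay within 1.5 times the value in the report. With time points 3 h apart (9 of 26) the counts fell to 2 for EGF against none in PC9 and 0 in PC9M2, 0 for EGF under gefitinib in PC9M2, 16, 15, 15 and 15 for the lines without addition, with gefitinib, with EGF and with both, 5 for the difference of the responses, 11 and 16 for late against early in PC9 and PC9M2, and 0 and 14 for change over time, with fewer time points by construction. Without pairing (no replicate block) limma called 0 members for EGF against none in either line, 0 for EGF under gefitinib in PC9M2 and 7 for the difference of the gefitinib effects. The main design paired the arrays by time point. EGF under gefitinib in PC9M2 gave 1 call with no filter on dim genes, without the arrays at 0 h, and without the time points at 8, 11, 16 and 18 h, an alternative chosen after seeing the data. The count with gefitinib ranged from 23 to 32 in PC9 and from 30 to 34 in PC9M2. Of 446 alternatives for 35 single-gene values of at least 1, 445 kept their direction and call, and CA9 between the lines under gefitinib lost its call with time points 3 h apart (-0.91). The cause was not tested. With 26 time points per course, no replicate was left out in turn. The dim CA9 and ANGPTL4 signals limit their sizes.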
